A study of Mus musculus with 10 samples.

Results

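The chromatin around 5 genes was followed in thymic invariant natural killer T (iNKT) cells: the 3 Nr4a nuclear receptor genes (Nr4a1, Nr4a2 and Nr4a3) and the HMG-box factor genes Tox and Tox2. Every accessible region of the deposited table that overlapped one of these gene bodies, or lay within 50 kb of its annotated start, was taken. The rule used position only and gave 103 of the 94823 regions, with 24 at Nr4a1, 8 at Nr4a2, 17 at Nr4a3, 44 at Tox and 10 at Tox2. The measurement was ATAC-seq, in which a transposase cuts open chromatin and the cuts (insertions) are counted in each region. iNKT1 cells (CD27+ CD122+) and iNKT2 cells (CD27+ CD122-) had been sorted from thymi of adult, age-matched BALB/c and SKG mice. The SKG strain carries a hypomorphic allele of Zap70, a kinase of T cell receptor (TCR) signalling, on the BALB/c background, in all of its cells. Each genotype gave 2 libraries of iNKT1 cells and 3 libraries of iNKT2 cells, 4 groups and 10 libraries in all. Nothing in the labels says whether the libraries came from separate animals, so the p-values below measure the spread between these libraries, which may be technical.

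iNKT cells recognise lipids on CD1d with a semi-invariant TCR, and develop in the thymus into subsets that make interferon-gamma (iNKT1), interleukin-4 (iNKT2) or interleukin-17 (iNKT17). The Nr4a genes are immediate early genes: TCR signalling switches them on within a short time of engagement, and the proteins they encode are nuclear receptors that act largely without a ligand. Tox is induced by TCR signals during positive selection of thymocytes, is needed for CD4 lineage and iNKT cell development, and is best known in mature T cells for its part in exhaustion, together with Tox2 and the Nr4a factors. Induction of these genes depends on calcium signalling through NFAT, whose DNA core is GGAAA.

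The following sequences are shown because the results below describe differences between groups in these regions, or, for the second Nr4a1 sequence, because it is the region nearest to the annotated start of that gene. Each is the central stretch of its region on the plus strand of GRCm38.p6 (mm10), the C57BL/6J reference, whereas the cells came from mice of BALB/c background. Capitals mark matches on either strand to the motif letters searched: the NFAT core GGAAA or its reverse complement, the AP-1 motif TGANTCA and the MEF2 motif.

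Tox, intron, chr4:6882724-6883023: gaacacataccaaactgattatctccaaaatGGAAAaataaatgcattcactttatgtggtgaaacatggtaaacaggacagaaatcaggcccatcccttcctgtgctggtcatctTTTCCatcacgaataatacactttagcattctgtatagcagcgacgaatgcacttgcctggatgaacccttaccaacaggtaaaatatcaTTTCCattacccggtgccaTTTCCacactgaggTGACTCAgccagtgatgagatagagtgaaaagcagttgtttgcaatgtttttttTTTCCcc

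Tox, intron, chr4:6868784-6869083: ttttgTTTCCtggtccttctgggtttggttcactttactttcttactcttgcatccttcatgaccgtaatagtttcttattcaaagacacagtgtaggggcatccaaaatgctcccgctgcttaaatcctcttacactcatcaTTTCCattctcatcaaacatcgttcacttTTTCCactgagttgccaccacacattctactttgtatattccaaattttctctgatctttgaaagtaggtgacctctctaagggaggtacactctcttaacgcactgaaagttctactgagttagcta

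Tox2, intergenic, upstream of the start, chr2:163160353-163160652: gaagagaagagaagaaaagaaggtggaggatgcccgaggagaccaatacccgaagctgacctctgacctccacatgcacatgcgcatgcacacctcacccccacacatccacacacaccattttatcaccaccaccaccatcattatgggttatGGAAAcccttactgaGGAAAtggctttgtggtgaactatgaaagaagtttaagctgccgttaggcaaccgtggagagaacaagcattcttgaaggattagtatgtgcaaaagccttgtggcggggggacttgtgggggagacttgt

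Nr4a1, intergenic, upstream of the start, chr15:101250428-101250727: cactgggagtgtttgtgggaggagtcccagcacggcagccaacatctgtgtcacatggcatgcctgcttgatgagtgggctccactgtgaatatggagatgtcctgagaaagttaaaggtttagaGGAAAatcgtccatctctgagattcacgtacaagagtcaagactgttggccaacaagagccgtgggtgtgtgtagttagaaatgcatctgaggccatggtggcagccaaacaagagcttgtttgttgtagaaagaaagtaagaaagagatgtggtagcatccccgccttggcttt

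Nr4a1, intergenic, next to the start, chr15:101253802-101254101: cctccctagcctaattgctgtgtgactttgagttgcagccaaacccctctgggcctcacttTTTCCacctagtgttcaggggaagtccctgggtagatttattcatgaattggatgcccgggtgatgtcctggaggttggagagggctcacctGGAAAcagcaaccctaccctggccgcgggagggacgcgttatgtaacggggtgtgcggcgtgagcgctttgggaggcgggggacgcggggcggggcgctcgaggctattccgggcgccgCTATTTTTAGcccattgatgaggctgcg

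Nr4a3, intron, chr4:48076693-48076992: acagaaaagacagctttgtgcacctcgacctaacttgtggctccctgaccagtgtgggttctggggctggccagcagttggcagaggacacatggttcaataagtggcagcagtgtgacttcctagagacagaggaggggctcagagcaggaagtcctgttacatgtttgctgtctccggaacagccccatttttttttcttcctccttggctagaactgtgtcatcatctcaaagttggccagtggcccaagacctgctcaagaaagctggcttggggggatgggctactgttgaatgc

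The first Tox sequence holds 5 NFAT core matches and 1 AP-1 match, the second Tox sequence 3 NFAT core matches and the Tox2 sequence 2. The upstream Nr4a1 sequence holds 1 NFAT core match, the sequence beside the Nr4a1 start holds 2 and also 1 MEF2 match, and the Nr4a3 sequence holds no match to any motif searched. The NFAT core is short: 64.1% of all 94823 regions have it in their central 300 bases, and 66 of the 103 regions at the 5 genes (64.1%) do as well.

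By the GENCODE annotation, 67 of the 103 regions lay in introns, 22 between genes, 6 over an annotated start, 5 in untranslated exon parts and 3 in coding exons. Of these regions, 14 had the start of another gene nearer to them, 11 of them around Nr4a1. The gene models were Nr4a1 (ENSMUSG00000023034.7, chr15:101254269-101274795, plus strand), Nr4a2 (ENSMUSG00000026826.13, chr2:57106830-57124003, minus strand), Nr4a3 (ENSMUSG00000028341.9, chr4:48045153-48086447, plus strand), Tox (ENSMUSG00000041272.11, chr4:6686353-6991557, minus strand) and Tox2 (ENSMUSG00000074607.11, chr2:163203125-163324170, plus strand). Tox, at 305205 bp, is the longest of the 5, so its gene body alone gathered many regions. The annotated start is the first base of the gene model in the direction of transcription. The models hold 3 protein-coding transcripts for Nr4a1, 3 for Nr4a2, 2 for Nr4a3, 1 for Tox and 5 for Tox2. Starts of single transcripts were not examined, so a region described as inside a gene may cover another start of that gene.

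The libraries held 14988590 to 36342635 insertions in the 94823 regions, with a median of 40 to 120 insertions per region. The first library of each iNKT2 group stood apart from its replicates (Pearson r of log2 levels 0.954 to 0.960, against 0.968 to 0.981 for the other pairs within groups). Levels are given in CPM, insertions scaled to a common library total, and those of marker start regions in CPM per kb of region. Start regions of the iNKT1 markers with one (Tbx21, Ifng, Il2rb and others, 5 of 6) summed to 319 to 362 CPM per kb in iNKT1 libraries. In iNKT2 libraries they summed to 81.0 to 127 CPM per kb. Start regions of the iNKT2 markers (6 of 6) overlapped between the subsets, at 108 to 124 CPM per kb against 114 to 189 CPM per kb. By the thresholds of a call given below, 67 of 258 regions at these genes were higher and 3 lower in BALB/c iNKT2 (against 15.5% and 6.36% of all regions). The genes were not alike. Those higher were 22 of 114 at Zbtb16, 16 of 29 at Il6ra, 15 of 21 at Il17rb, 8 of 37 at Il4, 6 of 29 at Ccr7 and 0 of 28 at Gata3. The Il4 start region had lower means in iNKT2, with 26.3 against 17.0 CPM per kb in BALB/c and 37.3 against 12.7 in SKG. Start regions of iNKT17 markers (4 of 5) summed to 8.91 to 10.2 CPM per kb in iNKT1 libraries and 37.9 to 60.6 CPM per kb in iNKT2 libraries. Single markers differed between genotypes in iNKT2. From BALB/c to SKG the mean went from 13.6 to 2.89 CPM per kb at Il17a and from 2.74 to 7.97 at Ccr6 (edgeR adjusted p = 0.000208 and 0.00722). It went from 11.8 to 9.98 at Il23r and from 23.6 to 28.5 at Sdc1 (edgeR adjusted p = 0.577 and 0.343). No iNKT17 sort was profiled. None of the 5 double-positive thymocyte markers (Rag1, Rag2, Cd8a, Cd8b1, Ptcra) and none of the 4 B cell markers had a start region in the table. Of 5 myeloid markers, 1 had one, Itgam. It held 3.77 to 4.88 CPM per kb in BALB/c iNKT1, 5.93 to 12.04 in SKG iNKT1, 1.01 to 2.51 in BALB/c iNKT2 and 0 to 2.93 in SKG iNKT2.

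Summed over all regions of a gene, accessibility at Nr4a1 and Nr4a3 was lowest in BALB/c iNKT2 cells, that at Nr4a2 was highest in BALB/c iNKT1 cells, that at Tox was higher in both iNKT2 groups, and that at Tox2 was lowest in SKG iNKT2 cells. In bulk libraries, fewer cells with an open region and a less open region in each cell cannot be told apart. Library totals were corrected by edgeR's TMM factors for all levels given. Nr4a1 summed to 335 ± 1.47 CPM in BALB/c iNKT1 (mean ± SD), 356 ± 10.2 CPM in SKG iNKT1, 243 ± 18.8 CPM in BALB/c iNKT2 and 329 ± 63.9 CPM in SKG iNKT2. The 3 BALB/c iNKT2 libraries (263, 226 and 240 CPM) lay below every other library. This sum includes the start regions of the neighbouring genes Grasp and Atg101. In the same order of groups, the Grasp start region had means of 28.8, 34.6, 13.3 and 17.6 CPM. The Atg101 start region had means of 49.3, 47.0, 31.5 and 44.1 CPM. Nr4a3 was also lowest in BALB/c iNKT2, with 454 ± 17.9, 494 ± 18.6, 366 ± 19.5 and 459 ± 17.4 CPM in those 4 groups. This low level was not particular to these genes. Regions at the B cell markers summed to 565 to 588, 613 to 614, 373 to 419 and 451 to 516 CPM in those groups. Regions at the myeloid markers summed to 597 to 617, 611 to 621, 437 to 506 and 473 to 556 CPM. Those at the iNKT17 markers were higher in iNKT2 libraries, and those at the double-positive markers overlapped.

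Nr4a2 summed to 108 and 107 CPM in the BALB/c iNKT1 libraries, 64.9 and 67.3 CPM in SKG iNKT1, 54.4, 63.4 and 73.3 CPM in BALB/c iNKT2 and 67.8, 67.5 and 60.5 CPM in SKG iNKT2. Both BALB/c iNKT1 libraries stood above the other 8, whose groups overlapped. Tox summed to 248 ± 19.1, 247 ± 16.5, 321 ± 12.1 and 351 ± 32.1 CPM in the same order of groups, with overlap between genotypes within each subset and none between subsets within a genotype. Tox2 summed to 49.6, 42.9 and 41.1 CPM in the SKG iNKT2 libraries and to 64.0 to 86.5 CPM in the other 7. With these group sizes the exact two-sided permutation test of a sum cannot go below p = 0.333 (2 libraries against 2), 0.2 (2 against 3) or 0.1 (3 against 3), so no sum could pass 0.05. Nr4a1, Nr4a3 and Tox2 reached that smallest value in SKG against BALB/c iNKT2 cells (exact permutation p = 0.1).

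The scaling matters for these sums, since using library totals without TMM factors moved the median log2 change of all regions by 0.28 between subsets in BALB/c, 0.18 between subsets in SKG and -0.13 between genotypes in iNKT2. With library totals the sign turned for the subset difference of Nr4a1, Nr4a2 and Nr4a3 in SKG and of Tox2 in BALB/c, and for the small iNKT2 genotype differences of Nr4a2 and Tox. The iNKT2 genotypes then overlapped at Nr4a1 (exact permutation p = 0.3), while Nr4a3 and Tox2 stayed at p = 0.1. The BALB/c subsets then overlapped at Nr4a1, Nr4a3 and Tox2 (exact permutation p = 0.6, 0.6 and 0.4), and the SKG subsets at Nr4a3. Per kb of region, the 4 group means were 37.7 to 50.9 CPM for Nr4a3, 20.2 to 29.7 for Nr4a1, 16.7 to 28.2 for Nr4a2, 12.8 to 18.3 for Tox and 11.1 to 19.9 for Tox2. Nr4a3 thus lay above the other 4 genes in every group, and the order of those 4 changed from group to group.

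**Figure D1:**
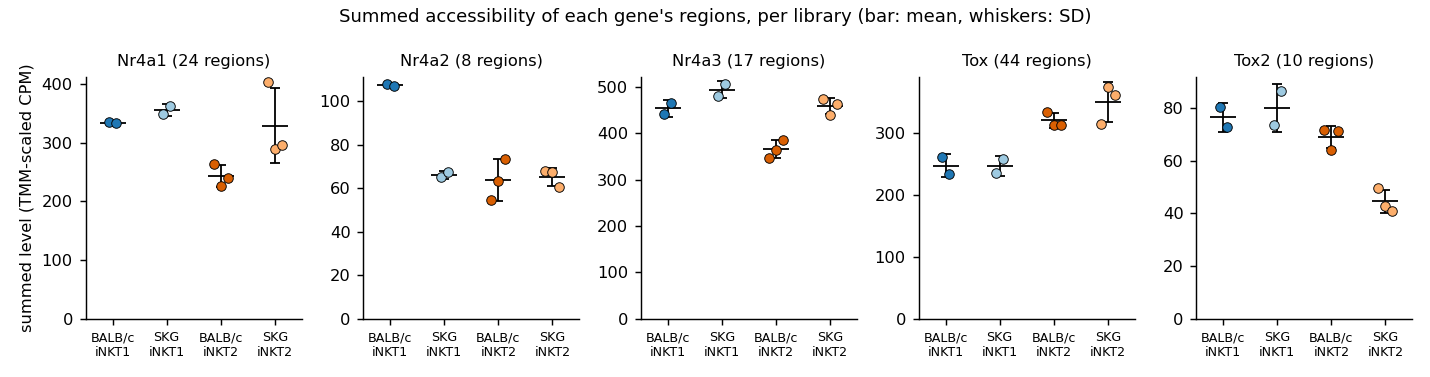
Summed accessibility (TMM-scaled CPM, linear axis from 0) of all regions of each of the 5 genes, with one point per library in the 4 groups, bars at the mean and whiskers for the SD. Both BALB/c iNKT1 libraries are highest at Nr4a2 (108 and 107 CPM), and the 3 SKG iNKT2 libraries are lowest at Tox2 (41.1 to 49.6 CPM).

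Each region was then compared between groups with edgeR's quasi-likelihood test, fitted over all 94823 regions and 10 libraries with p adjusted over all regions, and it is called where the adjusted p was under 0.01 and the change was at least 4-fold. Between subsets in BALB/c mice, 18 of the 103 regions were called higher in iNKT2 cells (17.5%, against 15.5% of all regions) and 2 lower (1.94%, against 6.36%). In SKG mice, 17 were called higher in iNKT2 cells (16.5%, against 10.2% of all regions) and 1 lower (0.971%, against 6.96%). The shares called higher were close to, or moderately above, those of all regions, and few regions at these genes were called more open in iNKT1 cells. These 2 comparisons use different libraries, and 9 regions were called higher in iNKT2 in both, 1 lower in both and 0 in opposite directions.

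Between genotypes, 0 of the 103 regions were called higher in SKG cells in either subset, against a background of 0.281% of all regions in iNKT1 and 0.252% in iNKT2. Without adjustment, 7 regions were higher at p under 0.05 in iNKT1 and 25 in iNKT2, against 6053 and 15483 of all 94823 regions. DESeq2 and limma-voom at the thresholds of a call also called 0. In SKG iNKT1 cells 3 regions were called lower (2.91%, against 0.732%), all at Tox. In SKG iNKT2 cells 7 were called lower (6.80%, against 4.73%), 5 at Tox and 2 at Tox2. The count in iNKT1 rests on single libraries: it was 0 without BALB/c iNKT1 library 1 or either SKG iNKT1 library, 1 without BALB/c iNKT1 library 2, and 4 without SKG iNKT2 library 1.

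With the adjusted p alone and no fold threshold, the counts moved to 33 higher and 17 lower between subsets in BALB/c (32.0% and 16.5%, against 25.7% and 23.4% of all regions). In SKG they were 26 higher and 16 lower (25.2% and 15.5%, against 18.4% and 17.6%). Between genotypes they were 0 higher and 5 lower in iNKT1 (4.85% lower, against 0.662% higher and 1.42% lower among all regions), and 5 higher and 15 lower in iNKT2 (4.85% and 14.6%, against 4.02% and 10.1%). No region at these genes was called for the difference of the genotype effect between subsets (background 0.189% higher and 0.341% lower). An unadjusted p under 0.05 was found for 27 of the 103, against 18812 of all 94823 regions. DESeq2 called 1 and limma-voom 0. Many of the calls fell on thinly covered regions: 14 of the 20 calls between subsets in BALB/c, 7 of 18 in SKG and 5 of 7 between genotypes in iNKT2, but 0 of 3 in iNKT1, lay below the lower quartile of mean insertions, which held 24 of the 103 regions.

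**Figure D2:**
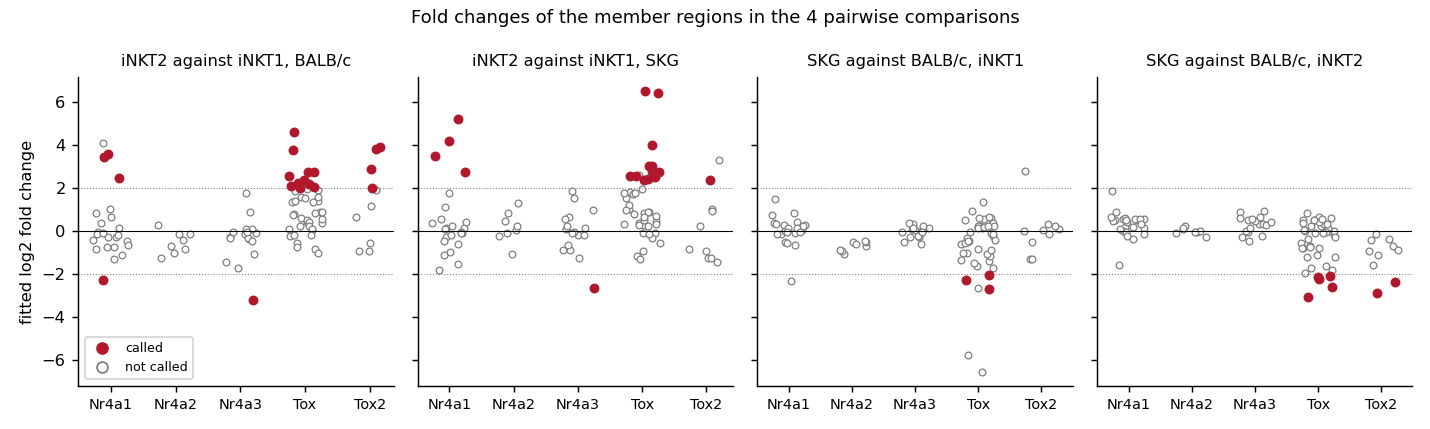
Fitted log2 fold changes (linear axis) of the 103 regions in the 4 pairwise comparisons, by gene, with filled points for called regions and dotted lines at 4-fold. Calls above the line between subsets are mostly at Tox (11 in BALB/c and 12 in SKG), and all calls between genotypes lie below it, at Tox and Tox2; fitted values for regions at 0 in one group are not bounds.

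At the 3 Nr4a receptor genes, few regions were called between subsets and none between genotypes. Over their 49 regions, 3 were called higher and 2 lower in iNKT2 than in iNKT1 cells of BALB/c mice (against 15.5% and 6.36% of all regions), and 4 higher and 1 lower in SKG (10.2% and 6.96%). Between genotypes 0 were called in either direction, also with DESeq2 and limma-voom. An unadjusted p under 0.05 was found there for 11 in iNKT1 and 20 in iNKT2, against 16196 and 35536 of all 94823 regions. At the adjusted p alone, 4 regions were higher in SKG than in BALB/c iNKT2 cells, by 0.49 to 0.59 on the log2 scale, and 1 was lower in SKG iNKT1 cells.

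Nr4a1 encodes Nur77, the receptor whose expression is widely used as a reporter of TCR signal strength. The region nearest to its annotated start (chr15:101253641-101254262) held 30.02 and 26.4 CPM in BALB/c iNKT1, 24.99 and 31.3 CPM in SKG iNKT1, 22.1, 14.8 and 13.9 CPM in BALB/c iNKT2 and 37.4, 18.7 and 16.7 CPM in SKG iNKT2. The groups overlapped between genotypes in iNKT1 and in iNKT2, and no comparison passed the adjusted threshold of 0.01 with all 10 libraries. In both iNKT2 groups the first library was the highest, and the subset comparisons turned on it. Without BALB/c iNKT2 library 1 or SKG iNKT2 library 1 the BALB/c subset difference was -0.96 or -0.74 on the log2 scale (edgeR adjusted p = 0.00451 and 0.00134). Without both it was -0.94 in BALB/c and -0.67 in SKG (edgeR adjusted p = 2.9e-08 and 4.1e-05).

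The subset difference of smallest adjusted p at Nr4a1 was 3.69 kb upstream of the start, at chr15:101250229-101250925. This region held 1.19 and 0.838 CPM in BALB/c iNKT1, 0.450 and 1.41 CPM in SKG iNKT1, 11.7, 13.4 and 11.5 CPM in BALB/c iNKT2 and 15.2, 6.38 and 9.17 CPM in SKG iNKT2. All 6 iNKT2 libraries lay above all 4 iNKT1 libraries, while the genotypes overlapped within each subset. The log2 difference of iNKT2 over iNKT1 was 3.55 ± 0.39 in BALB/c (SE, edgeR adjusted p = 1.8e-06) and 3.47 ± 0.43 in SKG (edgeR adjusted p = 8.3e-06). Between genotypes it was -0.15 ± 0.53 in iNKT1 and -0.24 ± 0.27 in iNKT2 (edgeR adjusted p = 0.933 and 0.565).

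The region with the highest level per kb at Nr4a1 over the mean of the 4 groups, 7.58 kb upstream at chr15:101246231-101247143, led in iNKT1 but not in iNKT2, where it was lower: 86.5 and 81.8 CPM in BALB/c iNKT1 and 103 and 94.5 CPM in SKG iNKT1, against 52.3, 45.4 and 51.7 CPM in BALB/c iNKT2 and 79.7, 68.4 and 66.1 CPM in SKG iNKT2. The groups did not overlap between subsets or between genotypes. The log2 difference was -0.76 ± 0.13 between subsets in BALB/c and -0.47 ± 0.13 in SKG (edgeR adjusted p = 0.000105 and 0.00688), and 0.52 ± 0.12 for SKG over BALB/c in iNKT2 (edgeR adjusted p = 0.00392). These calls at the adjusted p of 0.01 were not stable. With library totals, quantile normalization, thin regions dropped and the fit of the 2 groups alone, the SKG subset difference had adjusted p = 0.0919, 0.304, 0.0178 and 0.0126, and the genotype difference 0.0284, 0.094, 0.0115 and 0.0186. Leaving out any one of the 4 iNKT1 libraries or of SKG iNKT2 libraries 2 and 3 took the SKG subset difference to 0.0118 to 0.0817, and leaving out BALB/c iNKT1 library 1, BALB/c iNKT2 library 2 or BALB/c iNKT2 library 3 took the genotype difference to 0.0138 to 0.0456. The BALB/c subset difference was lost with quantile normalization (adjusted p = 0.0238).

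A region of untranslated exon sequence 12.4 kb into Nr4a1, at chr15:101266418-101266982, gave 38.9, 29.8 and 38.7 CPM in BALB/c iNKT2 and 64.0, 46.5 and 51.2 CPM in SKG iNKT2, without overlap, a log2 difference of 0.59 ± 0.15 (edgeR adjusted p = 0.00773). A further region that was higher in SKG iNKT2, chr15:101283805-101284702, covers the start of the neighbouring gene Atg101, with 31.4, 30.2 and 32.9 CPM against 51.1, 41.4 and 39.7 CPM (log2 difference 0.49 ± 0.12, edgeR adjusted p = 0.00886). These 2 regions were singled out after their values had been seen. Of the weaker regions, one 41.2 kb past the start (chr15:101295344-101295673) was higher in iNKT2 in both strains, with 0 to 0.179 CPM in the 4 iNKT1 libraries against 2.79, 1.67 and 1.48 CPM in BALB/c iNKT2 and 1.16, 0.230 and 0.472 CPM in SKG iNKT2. This region lies outside Nr4a1, in an intron of the gene 6030408B16Rik, whose start is nearest to it. The SKG subset call (edgeR adjusted p = 0.00651) was lost with DESeq2 (0.016), either limma-voom fit (0.0433 and 0.124), the fit of the 2 groups alone (0.0138), without both first iNKT2 libraries (0.0274) and without any one of 5 single libraries (0.0102 to 0.0723). Its genotype difference in iNKT2, -1.57 ± 0.47 on the log2 scale, had an edgeR adjusted p of 0.0233, and -1.72 with an adjusted p of 0.00571 once the replicate number was a block, or 0.00189 without SKG iNKT2 library 1.

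In an intron 8.36 kb past the Nr4a1 start (chr15:101262478-101262777), BALB/c iNKT1 libraries gave 1.64 and 1.68 CPM and BALB/c iNKT2 libraries 0.533, 0.185 and 0.289 CPM, a log2 difference of -2.30 ± 0.51 (edgeR adjusted p = 0.00111, or 0.014 and 0.0102 without BALB/c iNKT1 library 1 or BALB/c iNKT2 library 2). A region 21.5 kb past the start (chr15:101275478-101276050) was called higher in SKG iNKT2 than in SKG iNKT1 (log2 difference 5.21 ± 1.26, edgeR adjusted p = 0.00284), with 0.128 and 0 CPM against 5.05, 0.873 and 1.42 CPM. This region lies past the end of Nr4a1 and has the start of Atg101 nearest to it. The first SKG iNKT2 library was the highest, and the call was lost without SKG iNKT1 library 1 (adjusted p = 0.0203) or library 2 (0.0431) and with either limma-voom fit (0.0593 and 0.0667).

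Nr4a2 encodes Nurr1. Its start region (chr2:57123952-57124339) was lower in iNKT2 cells of both strains, with 14.6 and 13.8 CPM in BALB/c iNKT1, 10.9 and 10.0 CPM in SKG iNKT1, 6.74, 5.18 and 5.94 CPM in BALB/c iNKT2 and 5.23, 5.01 and 4.38 CPM in SKG iNKT2. The subsets did not overlap in either strain. The log2 difference of iNKT2 over iNKT1 was -1.25 ± 0.18 in BALB/c and -1.09 ± 0.19 in SKG (edgeR adjusted p = 1.9e-05 and 0.000177), both short of the 4-fold change that a call needs.

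The strongest Nr4a2 region per kb, 8.87 kb inside the gene in an untranslated exon (chr2:57114837-57115422), gave 40.4 and 44.9 CPM in BALB/c iNKT1, 22.1 and 22.8 CPM in SKG iNKT1, 16.7, 21.0 and 26.0 CPM in BALB/c iNKT2 and 23.8, 23.6 and 21.0 CPM in SKG iNKT2. Both BALB/c iNKT1 libraries were above all others. SKG iNKT1 was lower than BALB/c iNKT1 by -0.93 ± 0.18 on the log2 scale (edgeR adjusted p = 0.00761). The adjusted p was 0.0370 to 0.0994 without any one of the 4 iNKT1 libraries, 0.0112 and 0.0125 without SKG iNKT2 library 3 or BALB/c iNKT2 library 2, and 0.0115 with quantile normalization. All 8 Nr4a2 regions had a negative log2 difference in SKG iNKT1 (median -0.67, against -0.03 for all regions). At an unadjusted p under 0.05, 7 of them were lower, against 10143 of all 94823 regions. In iNKT2 the median was -0.03 and 0 regions had an unadjusted p under 0.05, against 35536 of all regions.

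Nr4a3 encodes Nor1. Its start region (chr4:48044157-48045764) held 96.3 and 94.0 CPM in BALB/c iNKT1, 115 and 121 CPM in SKG iNKT1, 72.7, 76.4 and 81.7 CPM in BALB/c iNKT2 and 116, 105 and 111 CPM in SKG iNKT2. The genotypes did not overlap in either subset. SKG exceeded BALB/c by 0.53 ± 0.10 on the log2 scale in iNKT2 cells and by 0.31 ± 0.13 in iNKT1 cells (edgeR adjusted p = 0.00179 and 0.211). The iNKT2 difference fell short of the threshold with quantile normalization (0.31, adjusted p = 0.0543), in the fit of the 2 groups alone (0.0143) and without BALB/c iNKT2 library 2 (0.0122), and the iNKT1 difference passed it in the fit of the 2 groups alone (0.00574) and without both first iNKT2 libraries (0.00608). The region with the highest level per kb over the mean of the 4 groups, 2.36 kb upstream at chr4:48042509-48043074, ranged from 57.7 to 85.2 CPM over the 10 libraries, with no comparison under an adjusted p of 0.01 except, without both first iNKT2 libraries, that of subsets in BALB/c (-0.29, edgeR adjusted p = 0.00786).

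The largest change at the Nr4a genes toward iNKT1 was in the last part of Nr4a3, in an intron 31.7 kb past the start (chr4:48076685-48077000). It held 7.80 and 7.01 CPM in BALB/c iNKT1, 9.12 and 6.93 CPM in SKG iNKT1, 1.04, 0.899 and 0.412 CPM in BALB/c iNKT2 and 1.16, 1.10 and 1.69 CPM in SKG iNKT2. All iNKT1 libraries were above all iNKT2 libraries. The log2 difference of iNKT2 over iNKT1 was -3.20 ± 0.29 in BALB/c and -2.64 ± 0.30 in SKG (edgeR adjusted p = 3.1e-07 and 3.1e-06), and it was called in both. SKG iNKT2 libraries lay above BALB/c iNKT2 libraries, with a log2 difference of 0.67 that did not pass the threshold (edgeR adjusted p = 0.131), and the genotypes overlapped in iNKT1.

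At Tox, 11 of 44 regions (25%, against 15.5% of all regions) were called higher in iNKT2 than in iNKT1 cells of BALB/c mice and 12 (27.3%, against 10.2%) in those of SKG mice, with 0 lower in either (6.36% and 6.96% of all regions). The 44 regions had median log2 differences of 0.89 (BALB/c) and 0.92 (SKG), against 0.06 and 0.14 for all regions. Between genotypes, the regions of the first part of the gene and those farther inside it differed. The start region (chr4:6990066-6991720) held 57.4 and 49.9 CPM in BALB/c iNKT1, 60.2 and 65.3 CPM in SKG iNKT1, 58.3, 59.3 and 70.6 CPM in BALB/c iNKT2 and 69.4, 100 and 101 CPM in SKG iNKT2. The groups overlapped between genotypes in iNKT2 through the first SKG library, and the log2 difference of 0.52 ± 0.15 there had an edgeR adjusted p of 0.0152, or 0.00361 with the replicate number as a block and 0.000400 without that library.

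The strongest Tox region per kb over the mean of the 4 groups, though not in either iNKT1 group, lay in an intron 15.6 kb past the start (chr4:6975740-6976220) and gave 15.5 and 18.3 CPM in BALB/c iNKT1, 6.10 and 9.11 CPM in SKG iNKT1, 33.2, 30.0 and 30.9 CPM in BALB/c iNKT2 and 45.3, 46.8 and 42.9 CPM in SKG iNKT2. No groups overlapped. SKG was lower than BALB/c in iNKT1 (log2 difference -1.15 ± 0.19, edgeR adjusted p = 0.00169). This adjusted p was 0.0128, 0.0286 or 0.0498 without BALB/c iNKT1 library 1, BALB/c iNKT1 library 2 or SKG iNKT1 library 1, and 0.0263 with quantile normalization. In iNKT2 the difference was 0.52 ± 0.14 (edgeR adjusted p = 0.0107, or 0.00504 with the replicate number as a block and 0.00722 with DESeq2). The difference between these genotype effects was 1.67 ± 0.23 (edgeR adjusted p = 0.00153), the only one at the 5 genes with an adjusted p under 0.01. Without BALB/c iNKT1 library 1, BALB/c iNKT1 library 2 or SKG iNKT1 library 1 its adjusted p was 0.0103, 0.0212 or 0.0203, and with quantile normalization 0.0138.

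Between subsets this region was 2.56 ± 0.18 higher in SKG iNKT2 on the log2 scale (edgeR adjusted p = 3.7e-08) and 0.89 ± 0.16 higher in BALB/c iNKT2 (edgeR adjusted p = 0.000170). Its neighbour 11.2 kb past the start (chr4:6980128-6980629) was likewise called in SKG alone, with 0.642 CPM in both SKG iNKT1 libraries against 6.27, 4.59 and 4.72 CPM in SKG iNKT2 (3.02 ± 0.33, edgeR adjusted p = 2.7e-06). In BALB/c it gave 1.28 and 1.37 CPM against 3.23, 4.36 and 2.89 CPM (1.41 ± 0.27, edgeR adjusted p = 0.000363). The difference between those effects, 1.61 ± 0.44, had an edgeR adjusted p of 0.0511.

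Farther inside the gene, a cluster of intronic regions was less open in SKG iNKT2 cells. All 5 Tox regions called lower in SKG iNKT2 fell in a stretch of 23.299 kb, chr4:6859786-6883084, between 108.7 and 131.6 kb past the start, which holds 8 regions in all. Its limits were drawn from these calls, so the counts within it are a description: 8 of 8 regions had a negative log2 difference in SKG iNKT2 (median -2.11, against -0.10 over the 44 Tox regions) and 7 an adjusted p under 0.01. In SKG iNKT1, 6 of 8 were negative, 2 were called lower, and the median was -1.83, or -1.54 with the 2 regions at 0 in SKG iNKT1 set to their bounds. The medians over all 44 Tox regions were the same with those bounds.

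Summed over the 8 regions, the stretch held 13.9 and 10.3 CPM in BALB/c iNKT1, 3.34 and 2.82 CPM in SKG iNKT1, 35.9, 24.2 and 30.3 CPM in BALB/c iNKT2 and 6.83, 6.75 and 6.07 CPM in SKG iNKT2. The SKG mean was 0.255 of the BALB/c mean in iNKT1 and 0.217 in iNKT2, without overlap. The 18 regions in the first 62 kb of the gene summed instead to 145 and 134, 155 and 162, 190, 190 and 187, and 229, 278 and 269 CPM in those groups. SKG was above BALB/c by a ratio of 1.14 in iNKT1 and 1.37 in iNKT2. The 62 kb limit was not part of the position rule, so these values are a description. The start region alone held 90.2 of the mean of 259 CPM in SKG iNKT2 and 62.7 of 189 CPM in BALB/c iNKT2. Of the 18, 14 had a positive log2 difference in iNKT2 and 10 in iNKT1, where 1 was lower at the adjusted p alone. None of these 18 regions was called between genotypes. One of them, 57.2 kb past the start (chr4:6933858-6934792) and named after its values were seen, gave 6.46, 7.57 and 5.73 CPM in BALB/c iNKT2 and 10.2, 12.5 and 12.7 CPM in SKG iNKT2 (0.83 ± 0.17, edgeR adjusted p = 0.00228).

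**Figure D3:**
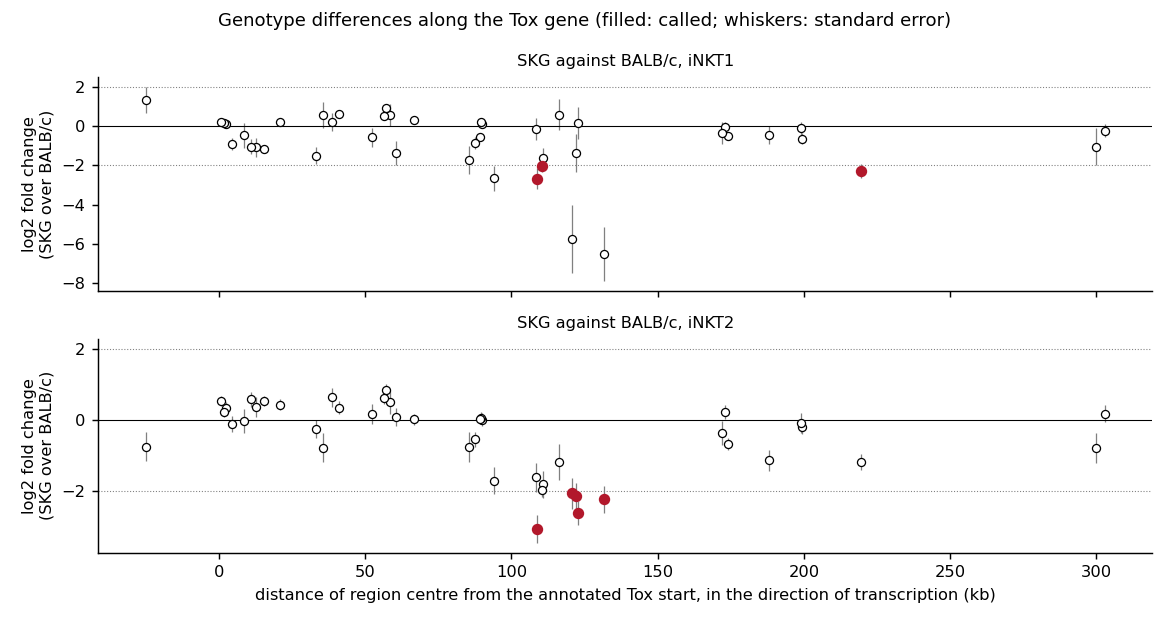
Log2 fold change of SKG over BALB/c (linear axis, whiskers for the standard error) for the 44 Tox regions against the distance of their centre from the annotated start in kb, in iNKT1 (upper) and iNKT2 (lower), with filled points for called regions. The 5 regions called in iNKT2 lie between 108.7 and 131.6 kb; the lowest fitted points of iNKT1, open, are regions with 0 insertions in SKG iNKT1 and are not bounds.

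The region at the near edge of the stretch (chr4:6882663-6883084, the first sequence above) held 3.49 and 3.13 CPM in BALB/c iNKT1, 0.707 and 0.321 CPM in SKG iNKT1, 8.85, 2.86 and 5.32 CPM in BALB/c iNKT2 and 0.743, 0.551 and 0.674 CPM in SKG iNKT2. Every SKG library was below every BALB/c library, and the BALB/c iNKT2 libraries varied by more than in the neighbouring regions. The log2 difference of SKG over BALB/c was -2.68 ± 0.54 in iNKT1 (edgeR adjusted p = 0.00829) and -3.08 ± 0.39 in iNKT2 (edgeR adjusted p = 4.2e-05). The iNKT1 value lost its call with library totals, with either limma-voom fit, with thin regions dropped and without any one of the 4 iNKT1 libraries (adjusted p = 0.0361 to 0.125) or of 3 iNKT2 libraries (0.0118 to 0.0188). With all libraries the subsets did not differ past the threshold at this region, by 0.77 ± 0.36 in BALB/c and 0.37 ± 0.61 in SKG. Without BALB/c iNKT2 library 2 the BALB/c subset difference was 1.17 (edgeR adjusted p = 0.00621).

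The next region (chr4:6880918-6881315, 110.4 kb past the start), the strongest of the stretch, held 7.23 and 5.25 CPM in BALB/c iNKT1, 1.61 and 1.41 CPM in SKG iNKT1, 13.2, 9.97 and 11.6 CPM in BALB/c iNKT2 and 2.88, 3.12 and 2.83 CPM in SKG iNKT2. Again no SKG library reached a BALB/c library. The log2 difference was -2.05 ± 0.27 in iNKT1 (edgeR adjusted p = 0.000357, called) and -1.97 ± 0.19 in iNKT2 (edgeR adjusted p = 4.4e-06), which missed 4-fold by little. The genotype effects of the 2 subsets differed by 0.08 ± 0.33. The iNKT1 adjusted p was 0.0121, 0.0102 or 0.0127 without BALB/c iNKT1 library 1, SKG iNKT1 library 1 or SKG iNKT1 library 2, and 0.0139 with quantile normalization.

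Deeper in the stretch, regions were open mainly in BALB/c iNKT2 cells. The region 122.6 kb past the start (chr4:6868713-6869154, the second sequence above) held 0.149 and 0.132 CPM in BALB/c iNKT1, 0.257 and 0.0642 CPM in SKG iNKT1, 3.64, 2.96 and 4.08 CPM in BALB/c iNKT2 and 0.802, 0.413 and 0.405 CPM in SKG iNKT2. The 3 BALB/c iNKT2 libraries stood well above the other 7. It was higher in iNKT2 than iNKT1 by 4.59 ± 0.49 in BALB/c (edgeR adjusted p = 1.2e-06) and by 1.80 ± 0.64 in SKG (edgeR adjusted p = 0.0280, not called), and lower in SKG iNKT2 by -2.62 ± 0.34 (edgeR adjusted p = 5.8e-05). These comparisons share the BALB/c or SKG iNKT2 libraries. In iNKT1 the genotypes differed by 0.17 ± 0.83 at 8 and 5 insertions per group.

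Its neighbour (chr4:6869374-6869732) held 2.01, 2.51 and 2.76 CPM in BALB/c iNKT2 and 0.743, 0.413 and 0.405 CPM in SKG iNKT2, with 0.0642 to 0.239 CPM in iNKT1 libraries (-2.14 ± 0.37, edgeR adjusted p = 0.000579). The other 2 called regions (chr4:6859786-6860089 and chr4:6870557-6870865), named because they complete the set, had 0 insertions in both SKG iNKT1 libraries. At the first, SKG iNKT1 was at least 4.81-fold lower than BALB/c iNKT1 (26 insertions) and SKG iNKT2 at least 4.43-fold higher than SKG iNKT1, taking 3 insertions over the group as the floor. At the second these bounds were 2.77-fold and 4.43-fold. In iNKT2 the log2 differences were -2.25 ± 0.38 and -2.07 ± 0.44 (edgeR adjusted p = 0.000627 and 0.00331).

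Outside the stretch, a region 219.4 kb past the start (chr4:6771986-6772309) was lower in SKG in both subsets, with 2.99 and 3.66 CPM against 0.835 and 0.513 CPM in iNKT1 and 7.68, 9.10 and 8.29 CPM against 3.74, 2.62 and 4.72 CPM in iNKT2. No libraries of the genotypes overlapped. The log2 difference was -2.29 ± 0.36 in iNKT1 (edgeR adjusted p = 0.00156, called) and -1.19 ± 0.22 in iNKT2 (edgeR adjusted p = 0.00102, not 4-fold); without any one iNKT1 library the iNKT1 adjusted p was 0.0107 to 0.0413, and with the 2 limma-voom fits 0.0262 and 0.0534. Just before the stretch, at 108.3 and 94.1 kb, 2 more thin regions, also picked after their values had been seen, were lower in SKG iNKT2 at the adjusted p alone (-1.62 ± 0.40 and -1.72 ± 0.38, edgeR adjusted p = 0.00789 and 0.00369).

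**Figure D4:**
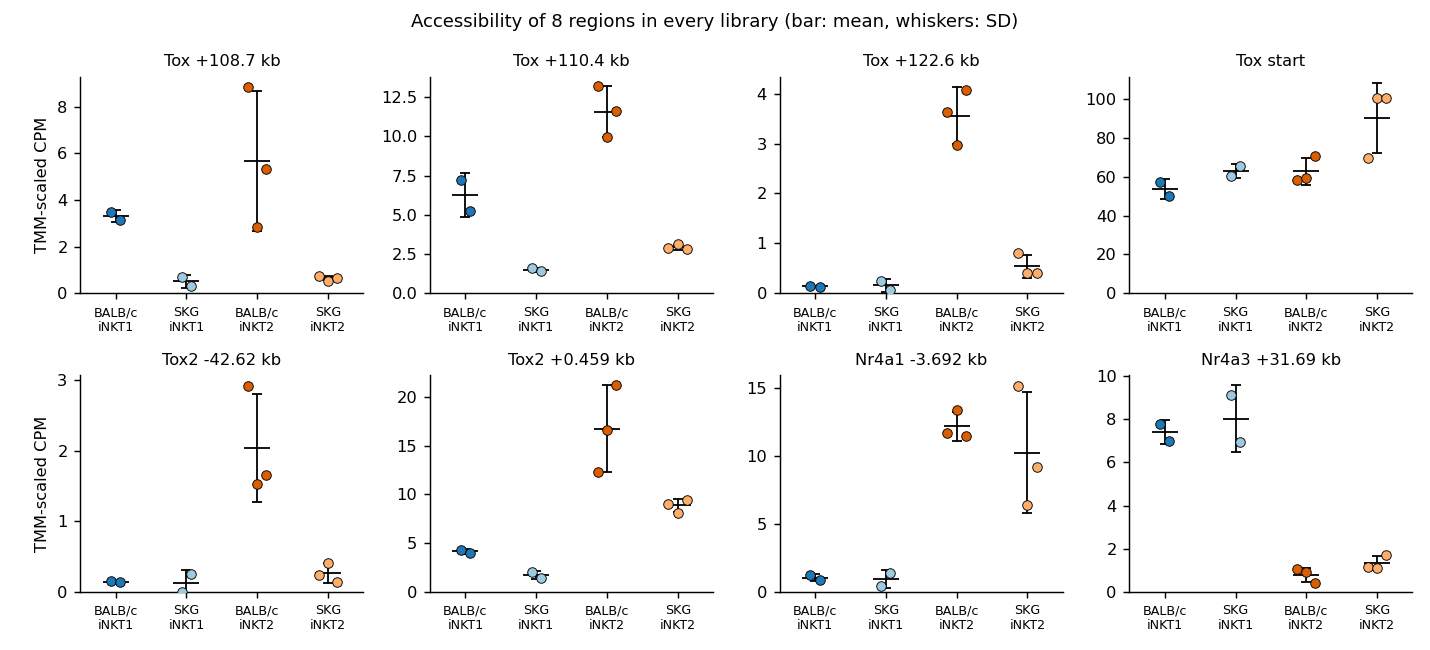
Accessibility (TMM-scaled CPM, linear axes from 0, each panel on its own scale) of 8 regions of Tox, Tox2, Nr4a1 and Nr4a3, with one point per library, bars at the mean and whiskers for the SD. SKG libraries lie below BALB/c libraries at the 3 Tox regions beyond 108 kb in iNKT2, whereas the Nr4a1 and Nr4a3 panels have all iNKT1 libraries on one side of all iNKT2 libraries.

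Tox2 encodes a paralog of Tox with the same kind of DNA-binding domain. Of its 10 regions, 4 (40%, against 15.5% of all regions) were called higher in iNKT2 than in iNKT1 cells of BALB/c mice and 1 (10%, against 10.2%) in SKG. In SKG iNKT2, 2 (20%, against 4.73%) were called lower than in BALB/c iNKT2. Between genotypes in iNKT1, 0 were called, also with DESeq2 and limma-voom. There 2 had an unadjusted p under 0.05, against 16196 of all 94823 regions. All 10 regions had a negative log2 difference in SKG iNKT2 (median -0.89, against 0.01 for all regions). The start region (chr2:163202909-163203237) held 3.23 and 2.42 CPM in BALB/c iNKT1, 2.83 and 1.22 CPM in SKG iNKT1, 5.49, 6.03 and 7.42 CPM in BALB/c iNKT2 and 4.52, 3.63 and 3.17 CPM in SKG iNKT2. The iNKT2 genotypes did not overlap, yet the difference of -0.72 ± 0.25 had an edgeR adjusted p of 0.0437.

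Just past the start, in the first intron (chr2:163203373-163203795), Tox2 gave 4.33 and 3.97 CPM in BALB/c iNKT1, 1.99 and 1.41 CPM in SKG iNKT1, 12.3, 16.7 and 21.2 CPM in BALB/c iNKT2 and 9.06, 8.13 and 9.44 CPM in SKG iNKT2. The 4 groups did not overlap. The iNKT2 cells were higher by 2.00 ± 0.24 in BALB/c and 2.38 ± 0.28 in SKG (edgeR adjusted p = 3.4e-06 and 4.5e-06, both called). SKG iNKT2 was below BALB/c iNKT2 by -0.91 ± 0.19 (edgeR adjusted p = 0.00296, or 0.0130 and 0.0150 without BALB/c iNKT2 library 3 or SKG iNKT2 library 2), and SKG iNKT1 below BALB/c iNKT1 by -1.29 ± 0.30 (edgeR adjusted p = 0.0196, or 0.00555 with DESeq2).

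The strongest Tox2 region per kb, in an intron 26.1 kb past the start (chr2:163229097-163229448), went the other way between subsets, with 35.0 to 48.2 CPM in the 4 iNKT1 libraries and 14.4 to 26.3 CPM in the 6 iNKT2 libraries. The log2 difference of iNKT2 over iNKT1 was -0.94 ± 0.18 in BALB/c and -1.46 ± 0.19 in SKG (edgeR adjusted p = 0.000359 and 1.1e-05). The BALB/c value was lost with library totals (0.0129), quantile normalization (0.0149) and without BALB/c iNKT1 library 1 (0.0167).

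The 2 Tox2 regions called lower in SKG iNKT2 were thin. One lay 42.6 kb upstream of the start (chr2:163160353-163160652, the third sequence above), with 0.149 and 0.132 CPM in BALB/c iNKT1, 0 and 0.257 CPM in SKG iNKT1, 2.92, 1.53 and 1.65 CPM in BALB/c iNKT2 and 0.238, 0.413 and 0.135 CPM in SKG iNKT2. Only the BALB/c iNKT2 libraries exceeded 0.5 CPM. The log2 difference was -2.89 ± 0.52 between genotypes in iNKT2 and 3.79 ± 0.65 between subsets in BALB/c (edgeR adjusted p = 0.000848 and 0.000127). The adjacent region (chr2:163164506-163164947, named after its values were seen) gave 5.65, 3.60 and 3.999 CPM in BALB/c iNKT2 and 1.57, 1.24 and 1.62 CPM in SKG iNKT2 (-1.58 ± 0.25, edgeR adjusted p = 0.000325).

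The other, 101.2 kb inside the gene (chr2:163304224-163304523), has the start of Jph2 nearest to it and a total of 80 insertions over the 3 BALB/c iNKT2 libraries against 11 in SKG iNKT2. Its levels were 0.816, 0.979 and 0.701 CPM against 0.149, 0.0918 and 0.270 CPM, without overlap. The log2 difference of -2.36 ± 0.59 was called (edgeR adjusted p = 0.00816), but it was lost without any one of the 6 iNKT2 libraries (adjusted p = 0.0123 to 0.0365) or of the 2 SKG iNKT1 libraries (0.0111 and 0.0113), with the replicate number as a block (0.0105), without both first iNKT2 libraries (0.0192) and with quantile normalization (0.0558).

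Some regions at marker genes of other cell types were also called lower in SKG iNKT2, at few loci. Of the double-positive thymocyte markers, 4 of 24 distinct regions were called lower in SKG iNKT2 (against 4.73% of all regions), all at Rag1 and Rag2 and 0 at Cd8a, Cd8b1 and Ptcra. Of the myeloid markers 7 of 45 were, 6 of them among the 20 regions at Cd14 and 1 at Csf1r. Of the B cell markers 2 of 38 were, near the share of all regions, and 1 at Cd79b was called higher. The myeloid regions summed to 437 to 506 CPM in BALB/c iNKT2 and 473 to 556 CPM in SKG iNKT2, and the B cell regions to 373 to 419 CPM and 451 to 516 CPM. Rag1 and Rag2 encode the recombinase that rearranges TCR genes in double-positive thymocytes. Of 10 regions at this locus, 5 were called higher in iNKT2 than in iNKT1 cells in BALB/c and 3 in SKG (15.5% and 10.2% of all regions), 4 lower in SKG iNKT2 than in BALB/c iNKT2 (4.73%) and 0 between genotypes in iNKT1. Several of the 10, also among those called lower, had the start of the neighbouring gene Traf6 nearest to them. Summed over all 10, the iNKT2 genotypes overlapped, at 80.4, 102 and 100 CPM in BALB/c and 71.1, 71.3 and 82.6 CPM in SKG. The strongest of the 10, nearest to the Traf6 start, held a mean of 45.0 CPM of this in BALB/c and 41.1 CPM in SKG. The 4 called regions, whose gap in iNKT2 follows from that choice, summed to 13.1, 14.97 and 13.6 CPM in BALB/c iNKT2, 2.97, 1.38 and 2.02 CPM in SKG iNKT2, 0.358 and 0.264 CPM in BALB/c iNKT1 and 0 and 0.449 CPM in SKG iNKT1. The part of these marker loci in the Tox and Tox2 results was not tested. Over all 24 distinct regions at the 5 double-positive marker genes, the summed level was 219 to 268 CPM and overlapped among the 4 groups.

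**Figure D5:**
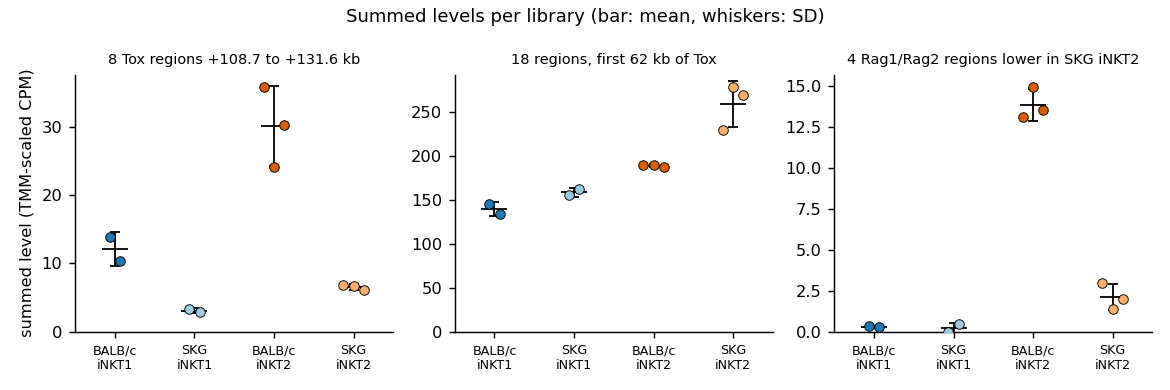
Summed levels (TMM-scaled CPM, linear axes from 0) per library of the 8 Tox regions between 108.7 and 131.6 kb, the 18 Tox regions of the first 62 kb, and the 4 regions around Rag1 and Rag2 called lower in SKG iNKT2. Bars are means and whiskers the SD. The regions of the first and last panels were chosen from calls in iNKT2, which fixes BALB/c iNKT2 above SKG iNKT2 there. SKG iNKT2 is highest in the middle panel. In iNKT1, SKG lies below BALB/c in the first panel, above it in the middle one, and overlaps it in the last.

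Other genes of the pathway, taken as a list of 20 genes with 423 regions, held fewer calls between subsets than all regions did for iNKT2 and about as many for iNKT1: 33 higher and 28 lower in BALB/c (7.80% and 6.62%), 32 and 27 in SKG (7.57% and 6.38%). The 8 upstream genes (Nfatc1, Nfatc2, Egr1, Egr2, Egr3, Mef2d, Irf4 and Batf, TCR-driven transcription factors) had 0 of 196 regions called in either direction between genotypes in iNKT1 and 5 called lower in SKG iNKT2 (2.55%, against 4.73% of all regions), 3 at Nfatc1 and 2 at Egr1. Irf4, which is induced in proportion to TCR signal, had 6 of 23 regions called higher in BALB/c iNKT2 (against 15.5% of all regions) and 7 in SKG iNKT2 (against 10.2%).

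Of the 10 genes regulated with or by Nr4a and Tox factors, 12 of 217 regions were called lower in SKG iNKT1 (5.53%, against 0.732% of all regions) and 15 in SKG iNKT2 (6.91%, against 4.73%), with 0 higher. Pdcd1, which encodes the inhibitory receptor PD-1, held 6 of the 12 and 4 of the 15 among its 20 regions, with a median log2 difference of -1.51 in iNKT1 and -1.29 in iNKT2. Ikzf2, which encodes the Ikaros family factor Helios, held 2 and 5 among its 35 regions. Of the other Tox family genes, Tox3 had no region in the table, and Tox4 had 10, with 1 called higher in iNKT2 in each strain and 0 called between genotypes.

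The regions were also searched for letters that the position rule did not use, in the central 300 bases on both strands. AP-1 (TGANTCA) matched in 7.77% of the 103 regions and 10.6% of all regions, Runx (TGTGGTT) in 11.7% and 13.2%, EGR (GTGGGCG) in 2.91% and 4.72%, TCF (CTTTGAT) in 5.83% and 5.74%, and the cyclic AMP element (TGACGTCA) in 0.971% and 0.904%. The Nr4a response element (AAAGGTCA) matched in 0.971% and 1.32%, MEF2 in 1.94% and 0.555%, both matches of MEF2 lying in the 49 Nr4a regions, and the T-box letters (AGGTGTGA) in 0 of 103 and 1.91%. In the Tox stretch, 7 of 8 regions (87.5%) had an NFAT core and 2 of 8 (25%) an AP-1 match. The median GC content of the central bases was 55.3% for the Nr4a regions, 41.5% for Tox, 50.2% for Tox2 and 49.0% for all regions.

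As a description, the start regions of 9910 protein-coding genes were ranked by the Pearson correlation of log2 levels with the start region of each gene over the 10 libraries, which share groups and depth. The most alike were Slc16a3 (r = 0.963) and Fosl1 (0.954) for Nr4a1, Tgfa (0.993) and Zfp316 (0.985) for Nr4a2, Emp3 (0.970) and Dstyk (0.970) for Nr4a3, Gm11992 (0.952) and Gfi1 (0.951) for Tox, and Slc1a1 (0.964) and Synpo2 (0.948) for Tox2. No gene stood among the first 5 of more than 1 of the 5 genes.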

How the data were processed

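The authors mapped paired ATAC-seq reads to mm10 with Bowtie 1.0, removed duplicate and mitochondrial reads with Picard, called summits with MACS2 on short fragments per library and merged them into one set of regions. The deposited table is named in the labels as normalized counts, but it holds whole numbers with unequal library totals, and the study's methods describe counted transposase insertions per region; the values were therefore taken as counts that were not normalized, and any scaling before deposit was not tested. Regions were 300 to 7709 bp wide. Insertion counts were fitted with edgeR 4.0.16 (R 4.3.3; quasi-likelihood, TMM factors, 4 group means, all 10 libraries, no filter on low counts), with Benjamini-Hochberg adjustment over 94823 regions. The study's methods name limma-voom; this and DESeq2 1.42.0 were alternatives (limma 3.58.1), as were library totals, dropping thin regions, a replicate block, other thresholds and windows, and leaving out each library. Depth was 14988590 to 36342635 insertions per library; intervals were not computed, and bounds against 0 cover counting error only. The fit was tested on simulated data.

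Groups came from the labels. Same-numbered libraries deviated together in iNKT2 between genotypes (r = 0.455, 0.142 and 0.166). Libraries 2 and 3 of unlike number did so as well (0.147 and 0.224), so the number did not pair these. No label says that a number marks a shared animal or day. In the other comparisons r of same-numbered libraries was between -0.0162 and 0.107. The members and lists were chosen with earlier results of these data known. Regions named with values were, for each gene, that at or nearest the start, that of highest level per kb, and the 2 called regions of smallest adjusted p per comparison and direction; others are marked as picked after their values were seen. Annotation was GENCODE M21 and sequence came from GRCm38.p6, as RefSeq provides it.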

Additional observations from a re-analysis of the deposited data

Results flagged for a closer look

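The genotype effect of 1 Tox region differed between the subsets. At chr4:6975740-6976220, 15.6 kb past the Tox start, SKG iNKT1 libraries (6.10 and 9.11 CPM) lay below BALB/c iNKT1 libraries (15.5 and 18.3 CPM), and SKG iNKT2 libraries (45.3, 46.8 and 42.9 CPM) above BALB/c iNKT2 libraries (33.2, 30.0 and 30.9 CPM). The test of the difference itself gave 1.67 ± 0.23 on the log2 scale (edgeR interaction contrast, adjusted p = 0.00153), and this adjusted p was 0.0103 to 0.0212 without BALB/c iNKT1 library 1, BALB/c iNKT1 library 2 or SKG iNKT1 library 1. No group was large enough for the search for single outlying libraries, which needs 4.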

How the results depend on the processing

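None of the 97 log2 differences of named regions reversed past the threshold under any alternative. Over the 970 values without 1 library, 886 kept their side of the threshold, 68 fell short of it and 16 passed it. Of the 886, 23 changed sign while short of the threshold in both fits. Between subsets in BALB/c, the 18 regions called higher became 8 with quantile normalization, 8 with thin regions dropped, and 33 at either looser threshold (adjusted p under 0.05 and 2-fold, or under 0.01 with no fold), and the 2 lower became 1 with thin regions dropped, 10 and 17. In SKG, the 17 higher became 11 with limma-voom, 7 with quantile normalization, 10 with thin regions dropped, 32 and 26, and the 1 lower became 2 without both first iNKT2 libraries (an alternative chosen after seeing the data), 10 and 16. Between genotypes in iNKT1, the 3 lower became 1 with limma-voom, 0 with quantile normalization, 7 and 5, and the 0 higher became 1 at the 2-fold threshold. In iNKT2, the 7 lower became 3 with thin regions dropped, 15 and 15, and the 0 higher became 1 and 5. For the interaction, 0 higher became 2 and 1, and 0 lower became 1 with DESeq2, 1 without both first iNKT2 libraries and 2 at the 2-fold threshold. Dropping thin regions removes regions from the test; for the other changes the cause was not tested. Without 1 library, the counts were 14 to 19 higher and 1 to 2 lower between subsets in BALB/c, 11 (without SKG iNKT1 library 1) to 18 higher and 1 to 2 lower in SKG, 0 to 4 lower between genotypes in iNKT1 and 5 to 8 lower in iNKT2. With library totals, the log2 ratios of summed levels moved to -0.18 (Nr4a1), -0.48 (Nr4a2), -0.0302 (Nr4a3), 0.66 (Tox) and 0.13 (Tox2) between subsets in BALB/c, to 0.16 (Nr4a2), 0.0777 (Nr4a3), 0.68 (Tox) and -0.66 (Tox2) in SKG, and to 0.20 (Nr4a3) and -0.00986 (Tox) between genotypes in iNKT2.

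With the replicate number as a block, 17 regions were higher and 2 lower between subsets in BALB/c, 17 and 1 in SKG, 3 lower between genotypes in iNKT1, 6 lower in iNKT2 and 0 for the interaction. Of the 97 named differences the block changed 5 at the adjusted p of 0.01: those given in the text, and the Tox2 region past the start in iNKT1 (-1.29, adjusted p = 0.00903), a comparison in which the numbers did not pair the libraries. Gene-body or other start windows left the total counts within 1.5 times of those given.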
